A study of Mus musculus with 6 samples.

Results

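H3K4me3 regions whose centre fell in the first intron of a transcript were examined in mouse oocytes at E16.5, late in fetal life when oocytes are in meiotic prophase. They were the rows of the H3K4me3 replicate 1 list that the authors' annotation assigns to an intron with the number 1, and they made up 1169 of the 8129 regions of that list (14.4%). Of these, 565 were centred within 1 kb of the nearest annotated transcription start site (TSS) and 604 beyond 1 kb. Members were chosen by annotation and position, and not by score, width or overlap.

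The regions come from CUT&RUN, in which an antibody directs a nuclease to its target and the released DNA is sequenced. Oocytes were the live GFP-positive cells sorted from gonads of female embryos, with a non-transgenic gonad setting the GFP baseline. All libraries share the mouse background: strain C57BL/6 in the labels, matings of mice homozygous for an Oct4-EGFP transgene, and the genotype Taf4b-wildtype. The transgene reports the Oct4 (Pou5f1) locus, so the sort selects germ cells as a class, and the labels do not say whether gonads were pooled. The 6 libraries were 2 each for H3K4me3, TAF4b and IgG. The lists of the H3K4me3 and TAF4b libraries were used. IgG was not analysed here, and the values below therefore come with no antibody background.

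H3K4me3, trimethylation of lysine 4 on histone H3, is laid down by the SET1 and MLL enzymes at active and CpG-rich promoters and is usually strongest on the nucleosomes just downstream of the TSS, which often places part of the mark in the first intron. In meiotic germ cells PRDM9 also places it at recombination hotspots, many of them away from promoters. TAF4b is a gonad-enriched subunit of TFIID, the complex that binds core promoters. The gene-name columns of the lists were empty, and a RefSeq gene table matched 0 of the 1755 transcript identifiers of these regions, so each region is given by its Ensembl transcript and its GRCm39 position. For the same reason the oocyte identity could not be checked against marker genes.

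The H3K4me3 replicate 2 list held 320 regions, of which 29 were in first introns. The TAF4b lists held 983 and 1111 peaks. Read totals are not in the lists, so depth is unknown. The labels do not say whether replicates came from separate animals. Scores are the authors' peak scores, on a scale that is not stated and that need not be the same in different lists, so a score is to be read only against others of its list. The promoter-TSS class is the authors' annotation for features around a TSS. Regions are not replicates, neighbouring ones can share an intron, and the tests below compare classes of regions in 1 list, with intervals that cover counting error only.

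Near the TSS, first-intron regions lay just past it. Of the 565, 563 (99.6%) were centred downstream, at a median of 335 bp. None was centred 1 to 100 bp downstream, where 1090 promoter-TSS regions lay. An intron lies downstream of its own start site, and the classes are assigned by position. Both placements thus follow at least in part from the annotation and were not tested as traits of the mark. Some promoter-TSS regions, 469 of 3559 (13.2%), were also centred over 100 bp downstream. In 277 (49.0%) of the near regions the intron and the nearest TSS belonged to the same transcript, and these sat 103 to 981 bp into the transcript, with a median of 343 bp.

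**Figure D1:**
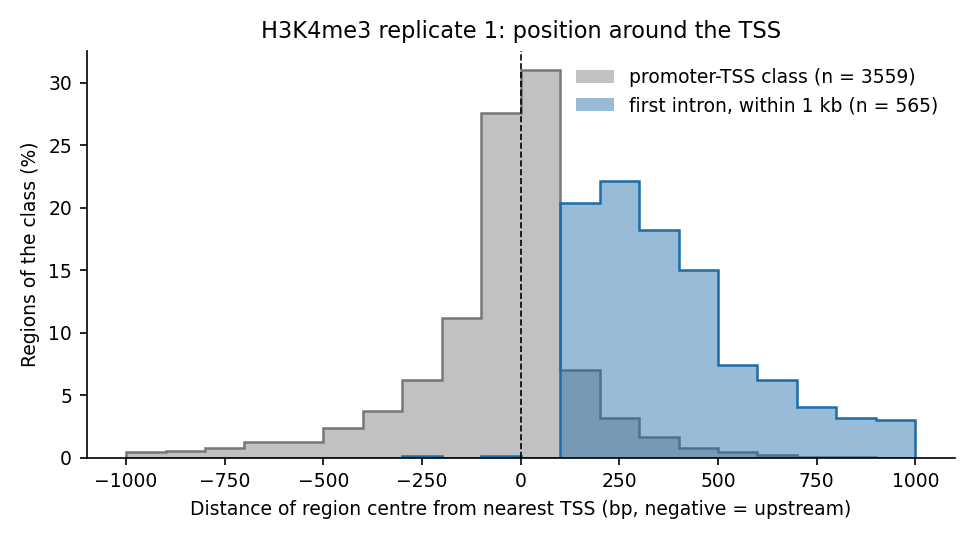
Histogram in steps of 100 bp of the distance from the region centre to the nearest TSS (x axis, negative upstream) as a share of each class (y axis, %), for 565 first-intron regions within 1 kb and 3559 promoter-TSS regions of H3K4me3 replicate 1. The promoter-TSS class straddles the TSS (dashed line), and the first-intron class, but for 2 regions centred upstream, begins past 100 bp and thins out towards 1000 bp. The classes are assigned by position, so this separation follows at least in part from the annotation.

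Many of these near regions reached back over the TSS. The nearest TSS lay between the edges of the region in 248 of 565 (43.9%, exact 95% interval 39.8 to 48.1%). Over the whole list 46.2% did so, and in the promoter-TSS class 87.3%. The TSS-covering members were the wider and higher ones, with a median width of 672 bp and a median score of 51.0. The other 317 had medians of 500 bp and 37.1. Width enters the definition of covering, so this contrast is a description.

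The gap to the nearest other promoter-TSS region of the list was measured between facing edges. Of the 565 near members, 20 had one at a gap of up to 1 kb (3.54%), against 1.02% of all regions and 1.01% of promoter-TSS regions. The share was alike in later introns within 1 kb (2 of 58, 3.45%), and it was 2.65% in promoter-TSS regions that did not cover the TSS. The median gap of the near members was 123622 bp, against 129234 bp over all regions. For 1 of the 565 a promoter-TSS region had the TSS of the same transcript as its nearest. Regions at another transcript of the same gene are not counted in that number. No regions of the list lay closer together than 500 bp, so signal nearer than that to a promoter-TSS region is not listed apart. The 20 with a neighbouring promoter region had a median width of 500 bp and a median score of 36.0.

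Distant members had the longer median gap. The median gap was 204003 bp, and 3 of the 604 (0.497%) had a promoter-TSS region within 1 kb, 24 (3.97%, against 3.01% of all regions) within 5 kb and 41 (6.79%) within 10 kb. Regions of any class include the promoter-TSS ones, so the gap to them cannot be longer. Its median was 62472 bp for distant and 54155 bp for near members, against 55909 bp over all regions. Over all regions 6.32% had a promoter-TSS region within 10 kb, and 44 near members did (7.79%). Within 100 kb, 43.9% of near and 35.9% of distant members had one, against 43.6% of all regions. The gap is bound to the distance that defines the classes and was not tested.

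**Figure D2:**
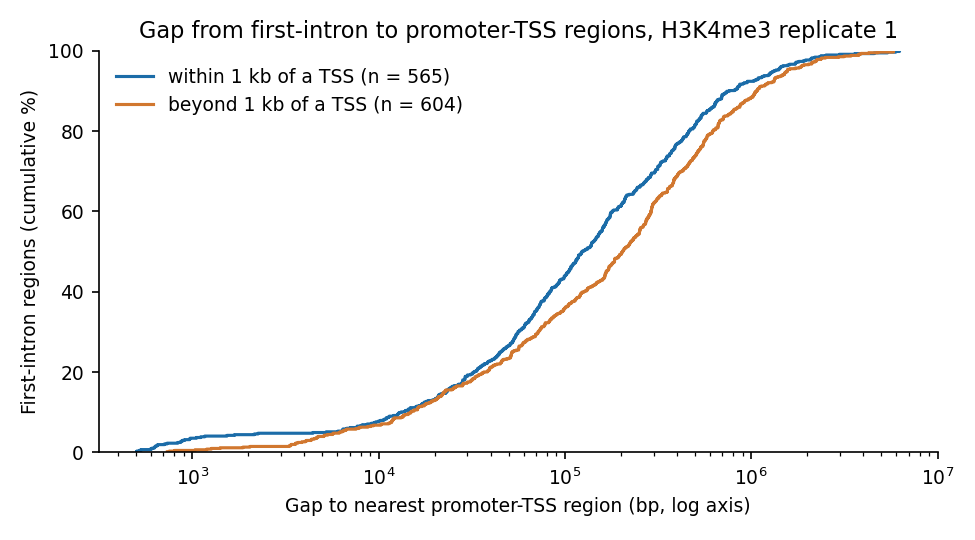
Cumulative share of first-intron regions (y axis, %) by the gap to the nearest promoter-TSS region of H3K4me3 replicate 1 (x axis, bp, log scale), for the 565 near and 604 distant members. The curves start at gaps of 504 and 735 bp, and the medians are 123622 and 204003 bp.

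The distant members spread over a wide range. Their distance to the nearest TSS had a median of 8340 bp, with quartiles of 3455 and 19490 bp and a largest value of 434070 bp. They lay downstream of the nearest TSS in 395 cases (65.4%) and upstream in 209. The downstream share was 56.8% over all regions and 56.6% in later introns beyond 1 kb, and the difference was not tested. In 215 (35.6%) of the distant members the intron and the nearest TSS belonged to the same transcript, which places them downstream by definition. These sat at a median of 6209 bp into the transcript and at most 208857 bp. For the other 389 another transcript starts closer, and whether that is an isoform of the same gene cannot be read from the lists. Transcripts with a single intron carried 16.7% of the distant and 10.6% of the near members.

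Most members were narrow. The narrowest width in the list was 500 bp and the next was 625 bp, so width falls into a floor class and a wider class. Of the near members 238 (42.1%) were wider than 500 bp, and of the distant members 222 (36.8%), against 47.0% of all regions. The near widths ran from 500 to 2160 bp with an upper quartile of 706 bp, and the distant ones from 500 to 2531 bp with an upper quartile of 640 bp. Widths over 1000 bp were found in 52 near (9.2%) and 40 distant members (6.62%), against 10.2% of all regions. The near and distant shares of wider regions differed by 5.37 percentage points (Newcombe 95% interval -0.233 to 10.9), and this missed the threshold of 0.05 (adjusted p = 0.145, Fisher's exact test). Each such test was two-sided, with Benjamini-Hochberg adjustment over 16 tests.

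Scores overlapped widely between the 2 classes. Near members had scores of 25.5 to 162.4 with a median of 41.8, and distant members 25.5 to 250.6 with a median of 39.4. The list median was 41.8, and 290 near (51.3%) and 282 distant members (46.7%) were at or above it, as were 55.7% of all regions. The difference of 4.64 points (-1.09 to 10.3) did not pass (adjusted p = 0.197, Fisher's exact test). The interval allows the near share to be up to 10.3 points higher.

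Against the promoter-TSS class, near first-intron regions were narrower and lower. Of the 3559 promoter-TSS regions 55.9% were wider than 500 bp, and the first-intron share differed by -13.8 points (95% interval -18.1 to -9.39, adjusted p = 8.07e-09, Fisher's exact test). A score at or above the list median was found in 64.4% of promoter-TSS regions, and the first-intron share differed by -13.1 points (-17.5 to -8.68, adjusted p = 2.29e-08, Fisher's exact test). Median widths were 500 and 631 bp, and median scores 41.8 and 46.4. Width and score went together, so the differences are not independent. With scores grouped at the list's quartiles, 0.649% of near members in the lowest group and 98.4% in the highest were wider than 500 bp. Both differences kept their size when each class was limited to regions centred over 100 and up to 1000 bp downstream, at -14.0 and -13.7 points (adjusted p = 3.79e-05 for each, Fisher's exact test). That limit did not equalise position. Median distances were still 336 bp in first-intron and 196 bp in promoter-TSS regions, and 43.7% and 78.5% covered the TSS.

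Among regions that cover the TSS neither difference held, but that limit itself selects on width. No region is narrower than 500 bp, so one centred over 250 bp from the TSS must be wider than that to cover it, as 79 of the 248 first-intron regions were. Their median distance was 209.5 bp, against 65 bp for TSS-covering promoter-TSS regions. Wider regions made up 66.9% of the 248 first-intron and 59.4% of the 3107 promoter-TSS regions of that kind, a difference of 7.52 points in the other direction that did not pass (adjusted p = 0.117, Fisher's exact test). Scores at or above the list median made up 69.4% and 67.3% (difference 2.09 points, -4.13 to 7.75, adjusted p = 0.648, Fisher's exact test). The width difference was also smaller, at -4.96 points, and did not pass among scores at or above the list median (adjusted p = 0.176, Fisher's exact test). These limits to the classes, except that on score, were chosen after the values were seen.

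**Figure D3:**
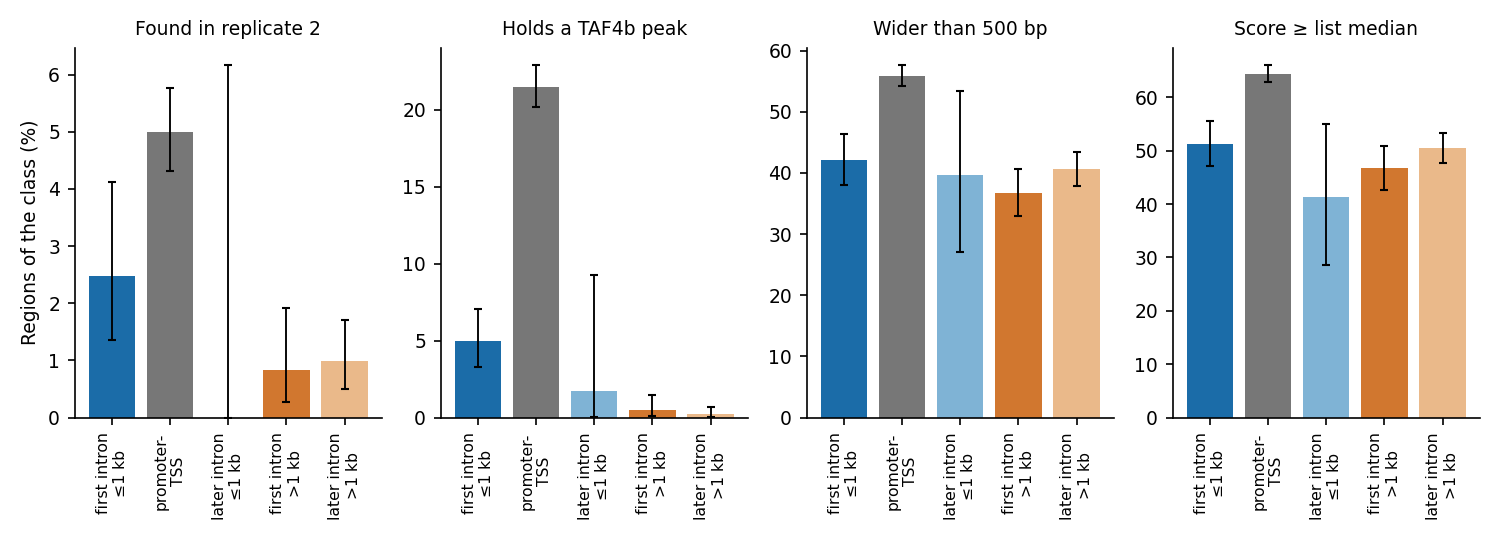
Share of regions (y axis, %, bars with exact 95% intervals, each panel with its own scale) that were found in replicate 2, held a TAF4b peak, were wider than 500 bp or had a score at or above the list median, in 5 classes of H3K4me3 replicate 1. Near first-intron regions (dark blue) stand below the promoter-TSS class (grey) in all 4 panels, at 2.48 against 5.0%, 4.96 against 21.5%, 42.1 against 55.9% and 51.3 against 64.4%.

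Against later introns no difference was found at either distance. Within 1 kb the comparison class held 58 regions, of which 39.7% were wider than 500 bp and 41.4% at or above the list median score. The first-intron shares were 2.47 (-11 to 14.7) and 9.95 points (-3.52 to 22.4) higher (adjusted p = 0.833 and 0.245, Fisher's exact tests). Beyond 1 kb, 40.7% of the 1222 later-intron regions were wider than 500 bp and 50.6% at or above the median score. First introns differed from them by -3.92 (-8.58 to 0.854) and -3.88 points (-8.72 to 0.988) (adjusted p = 0.197 for each, Fisher's exact tests). The near intervals are wide, so these data do not show that the 2 intron classes are alike there.

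TAF4b lay in few first-intron regions and almost all of them were near the TSS. A peak of either TAF4b list overlapped 28 of the 565 near members (4.96%, exact 95% interval 3.32 to 7.08%) and 3 of the 604 distant ones (0.497%, 0.103 to 1.44%), against 10.7% of all regions of the list. The difference was 4.46 points (2.68 to 6.60, adjusted p = 4.64e-06, Fisher's exact test). It was 2.85 points without TAF4b replicate 1 and 2.69 points without replicate 2, and it passed in both cases. The 28 near members were made up of 10 with a peak of TAF4b replicate 1 alone, 10 with one of replicate 2 alone and 8 with both. Within the near class the share was 8.33% over 100 and up to 250 bp from the TSS, 4.58% up to 500 bp and 1.49% up to 1000 bp. Over 1 and up to 2 kb it was 2.63% (2 of 76, 0.32 to 9.18%), so the share did not fall at every step. The intervals of these distance groups overlap. Beyond 2 kb, 1 member held a peak.

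Even near the TSS the share was well under that of the promoter-TSS class, where 766 of 3559 regions held a peak (21.5%). First-intron regions differed by -16.6 points (-18.6 to -14.1, adjusted p = 2.35e-24, Fisher's exact test). The difference was -12.6 points without TAF4b replicate 1, -9.68 points without replicate 2 and -9.53 points with both classes centred over 100 and up to 1000 bp downstream, where 28 of 563 and 68 of 469 regions held a peak. In each of these it passed. Under the last limit position still differed, with median distances of 336 bp in first-intron and 196 bp in promoter-TSS regions. Among TSS-covering regions 22 of 248 first-intron (8.87%) and 722 of 3107 promoter-TSS regions (23.2%) held a peak, a difference of -14.4 points (-17.7 to -9.93, adjusted p = 2.81e-07, Fisher's exact test).

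Later introns gave 1 of 58 within 1 kb (1.72%) and 3 of 1222 beyond (0.245%). First introns differed from these by 3.23 (-4.34 to 5.78) and 0.251 points (-0.325 to 1.22), and neither passed (adjusted p = 0.624 and 0.538, Fisher's exact tests).

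The promoter-TSS class held more TAF4b at every level of the mark. In the 4 score groups cut at the list's quartiles, from low to high, 2.60%, 0.826%, 1.83% and 15.9% of the near first-intron regions held a TAF4b peak. In the promoter-TSS class the shares were 11%, 14.2%, 18.6% and 33.5%. The first-intron share was the lower one in each group, which was not tested group by group. Most first-intron regions with a peak, 20 of 28, were in the highest score group.

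Most TAF4b peaks in near members carried the promoter class. The 28 near members were overlapped by 36 peaks, of which 29 carried the authors' promoter-TSS class, 6 a first-intron class and 1 an exon class. The 29 promoter-class peaks were centred -200 to 51 bp from their own nearest TSS, with a median of -38 bp. The H3K4me3 regions with a peak were all centred downstream of theirs, at a median of 250 bp. Both classes are assigned by position, so these placements follow at least in part from the annotation. The start site nearest to the peak need not be the one nearest to the region. Further peaks stood outside the region edge. With the 28 that held a peak included, 51 near members (9.03%) had a peak within 250 bp and 75 (13.3%) within 1 kb. The shares of all regions, counted in the same way, were 11.9% and 12.8%. Within 1 kb the promoter-TSS share was 23.8%, and the difference was -10.6 points (adjusted p = 2.07e-08, Fisher's exact test).

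**Figure D4:**
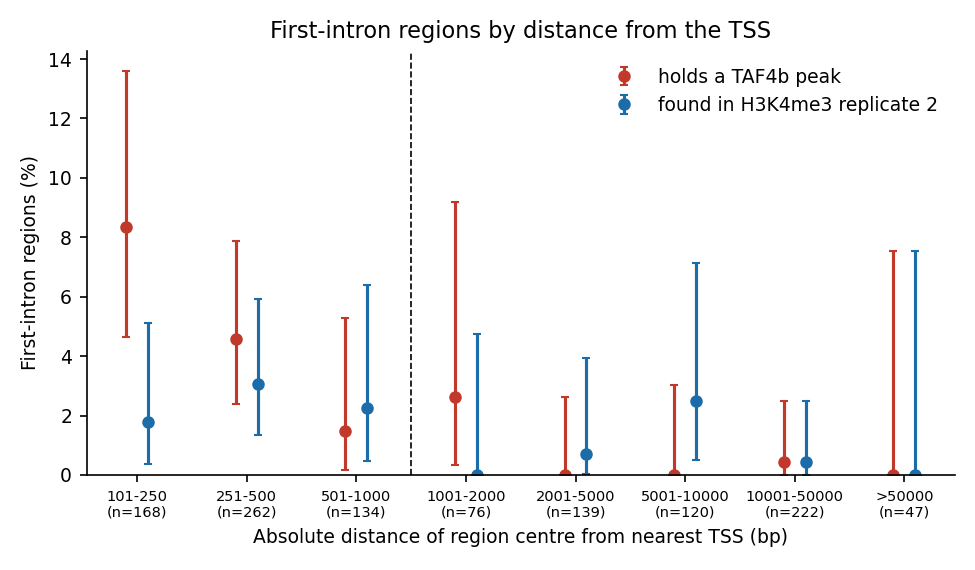
Share of first-intron regions of H3K4me3 replicate 1 (y axis, %, points with exact 95% intervals) that held a TAF4b peak or were found in H3K4me3 replicate 2, by absolute distance of the centre from the nearest TSS (x axis, bp, the dashed line marks 1 kb). The TAF4b share is 8.33% up to 250 bp, 4.58% up to 500 bp, 1.49% up to 1000 bp and 2.63% up to 2000 bp, with overlapping intervals. The 1 region within 100 bp is not drawn.

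Near members with TAF4b had a higher median H3K4me3 score than those without, a difference that was not tested. Their scores ran from 27.8 to 125.3 with a median of 71.9, and their median width was 867 bp. The 537 near members without a peak had medians of 39.4 and 500 bp. Covering of the TSS went with both, in 22 of the 28 with a peak and 226 of the 537 without. A wide region can meet a peak more easily, and the part of width in this was not tested.

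Peaks of both TAF4b lists fell in 8 near members, and the 5 with the highest H3K4me3 scores all covered the TSS. The first, in intron 1 of 4 of ENSMUST00000153209 on chromosome 11 at 54677805 to 54678847, had an H3K4me3 score of 109.0 and a centre 125 bp downstream. Its TAF4b peaks scored 7.31 and 29.4 in replicates 1 and 2 and lay -38 and -24 bp from the start site of a further transcript. In ENSMUST00000020637 on chromosome 11 at 50215773 to 50216864 (97.4, centre at 182 bp) the peaks lay -94 and -127 bp from that same TSS and scored 10.4 and 33.5. In ENSMUST00000160864 on chromosome 12 at 71021129 to 71022156 (97.4, centre at 149 bp) the peaks scored 9.24 and 19.3 and lay -8 and 5 bp from the start site of a further transcript. All 6 of these peaks carried the promoter-TSS class.

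The next of the 5 was also found in H3K4me3 replicate 2. It lay in intron 1 of 4 of ENSMUST00000147457 on chromosome 4 at 109058676 to 109059630, with H3K4me3 scores of 88.2 and 120.5 in replicates 1 and 2 and TAF4b scores of 10.8 and 16.2. The last, in ENSMUST00000075641 on chromosome 11 at 33112327 to 33113424, had an H3K4me3 score of 78.9 and the highest TAF4b replicate 1 score of the 5, 13.1, beside 30.4 in replicate 2.

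The 3 distant members with TAF4b each scored above 51.0, the upper quartile of their class. The widest first-intron region of all, in intron 1 of 9 of ENSMUST00000150182 on chromosome 7 at 6731002 to 6733533, was 2531 bp wide and scored 190.2. Although centred 1151 bp downstream, it was the 1 distant member that covered the TSS. It held 1 peak of TAF4b replicate 1, at 826 bp, and 2 of replicate 2, at 848 and 1546 bp, all of them downstream of the TSS. The second, in ENSMUST00000089565 on chromosome 7 at 70011264 to 70011910, scored 69.6 and held peaks of both lists at -1190 and -1273 bp from the TSS of another transcript. The other, in ENSMUST00000173692 on chromosome 8 at 112300383 to 112301491, lay 12465 bp downstream, scored 102.1 and held a peak of replicate 1 alone, which scored 5.77. That peak was centred 12040 bp from the nearest TSS.

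Few first-intron regions were found in H3K4me3 replicate 2, and few of all regions were (231 of 8129, 2.84%). The replicate 2 list held 320 regions, which limits how many could be found. First-intron regions found there were 14 of the 565 near members (2.48%, 1.36 to 4.12%) and 5 of the 604 distant ones (0.828%, 0.269 to 1.92%). The difference of 1.65 points (0.170 to 3.36) did not pass (adjusted p = 0.0939, Fisher's exact test). Promoter-TSS regions were found in 5.0% of cases, and the near first-intron share differed from it by -2.52 points (-3.78 to -0.754, adjusted p = 0.022, Fisher's exact test).

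That call was lost in 4 alternatives. It ended with the split at 500 bp (-2.45 points, adjusted p = 0.0705, Fisher's exact tests here and for the other limits) and among scores at or above the list median (-2.76 points, 0.209). It also ended among TSS-covering regions (-1.71 points, 0.478) and among regions centred over 100 and up to 1000 bp downstream (-2.2 points, 0.145). Later introns gave 0 of 58 within 1 kb, which allows a share of up to 6.16% (exact 95% upper bound), and 12 of 1222 beyond (0.982%). First introns differed from these by 2.48 (-3.81 to 4.12) and -0.154 points (-1.02 to 1.02), and neither passed (adjusted p = 0.721 and 1.0, Fisher's exact tests).

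Members found in replicate 2 had the higher median scores, which was not tested. The 14 near ones had scores of 32.5 to 141.5 with a median of 69.6 and a median width of 818 bp, against 41.8 and 500 bp for the 551 others. The 5 distant ones scored 30.2 to 74.2 with a median of 55.7, against 39.4 for the 599 others. The ranges overlap in both classes. In the promoter-TSS class too the share found in replicate 2 was higher in the highest score group (9.09%) than in the lowest (1.12%). Of the 19 counterparts of first-intron regions in replicate 2, 13 were annotated to a first intron, 5 to the promoter-TSS class and 1 to an exon. A region centred in the intron in 1 library can thus be centred at the promoter in the other. From the other side, 17 of the 29 replicate 2 regions in first introns (58.6%) had a replicate 1 counterpart of any class, against 72.2% of the whole replicate 2 list. The 12 others included 5 within 1 kb of a TSS and 7 beyond.

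The highest of the 19 lay in intron 1 of 3 of ENSMUST00000135177 on chromosome 7 at 81102713 to 81104710, 712 bp from the TSS of another transcript. It was 1997 bp wide, covered that TSS and scored 141.5 and 127.6 in replicates 1 and 2. The next, in ENSMUST00000151681 on chromosome 17 at 26934962 to 26935778, scored 132.2 and 120.5 and did not reach its TSS, 672 bp away. Regions in ENSMUST00000235265 on chromosome 17 at 32568873 to 32569838 (99.8 and 85.1) and ENSMUST00000220415 on chromosome 12 at 31400654 to 31401628 (85.8 and 78.0) both covered the TSS. Of the 14 near members found in both libraries, 9 covered the TSS and 5 did not.

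Among the distant members found in both libraries, 2 had the nearest TSS in the same transcript: ENSMUST00000023504 on chromosome 16 at 38105678 to 38106178, 9258 bp downstream with scores of 74.2 and 99.3, and ENSMUST00000107202 on chromosome 4 at 83469886 to 83470514, 2303 bp downstream with scores of 55.7 and 70.9. The other 3 lay upstream of the nearest TSS. One, in ENSMUST00000112233 on chromosome X at 165121428 to 165122268, was at -5840 bp and scored 60.3 and 106.4. In ENSMUST00000187553 on chromosome 1 at 71944153 to 71944653 the distance was -6309 bp and the scores 41.8 and 78.0. In ENSMUST00000147388 on chromosome 9 at 64518002 to 64518502 they were -49489 bp, 30.2 and 92.2. None of the 5 held a TAF4b peak.

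**Figure D5:**
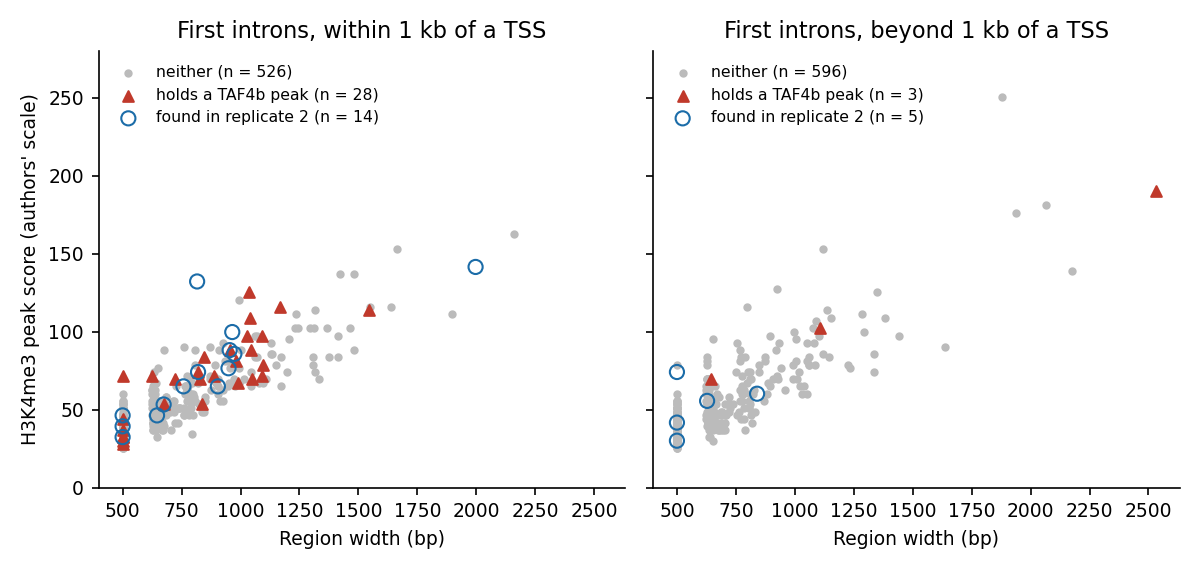
H3K4me3 peak score (y axis, authors' scale) against region width (x axis, bp) for each first-intron region of replicate 1, near members on the left and distant ones on the right; triangles hold a TAF4b peak and open circles were found in replicate 2. Score rises with width, marked regions spread over most of the range, and the highest scores, 250.6 among distant and 162.4 among near members, belong to unmarked regions.

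Among the 5 highest-scoring regions of each distance class, only 1 near member was found in replicate 2 and only 1 distant member held TAF4b. Among near members the highest score was 162.4, in intron 1 of 2 of ENSMUST00000218557 on chromosome 10 at 130377616 to 130379776. It was the widest near member at 2160 bp, was centred 480 bp downstream and had no promoter-TSS region within 1719442 bp. It was followed by a region of 1664 bp in ENSMUST00000136878 on chromosome 8 at 72704591 to 72706255 with a score of 153.1. The region in ENSMUST00000135177 described above came next. Regions in ENSMUST00000181429 on chromosome 13 at 20274333 to 20275813 and ENSMUST00000046212 on chromosome 3 at 104545456 to 104546880 both scored 136.9. All 5 covered the nearest TSS.

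Among distant members the highest score was 250.6, the sixth in the whole list. This region lay in intron 1 of 3 of ENSMUST00000210828 on chromosome 8 at 47456011 to 47457888, 10263 bp into the transcript. The same intron held 2 more regions, at 47453927 to 47454852 and 47462963 to 47463773, with scores of 71.9 and 53.4, so that 3 regions fell within 9.85 kb. After the region in ENSMUST00000150182 with TAF4b, the next scores were 181.0 in ENSMUST00000018644 on chromosome 11 at 62150364 to 62152429 and 176.3 in ENSMUST00000130765 on chromosome 15 at 73498978 to 73500916. The fifth, in ENSMUST00000166136 on chromosome 6 at 28866499 to 28867620, scored 153.1. Of the 5, 3 were downstream of the nearest TSS in their own transcript and 2 were upstream of another.

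Most first introns with the mark held a single region. The 1169 regions were annotated to 1108 transcripts, and 1054 of these carried 1 region, 49 carried 2, 3 carried 3 and 2 carried 4. In ENSMUST00000066197 on chromosome 11 the 4 regions spanned 137.0 kb and scored 30.2 to 69.6, each over 40 kb from a TSS. In ENSMUST00000127664 on chromosome 8 they spanned 1611.3 kb by the authors' annotation and scored 32.5 to 41.8. All 8 scores but the one of 69.6 were at or below the list median of 41.8.

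The 3 members farthest from a promoter-TSS region had scores at or below the list median. On chromosome X, regions in ENSMUST00000113409 at 111510384 to 111510884 and ENSMUST00000113415 at 111221189 to 111221689 lay 6246666 and 5957471 bp from one, with scores of 41.8 and 32.5, yet both were within 1 kb of a TSS, at 411 and 376 bp. On chromosome 1, a region in ENSMUST00000086738 at 99788482 to 99789179 lay 5802689 bp away and scored 37.1. At the 1 kb split, the 3 regions just inside, at 986, 990 and 996 bp, scored 32.5, 37.1 and 32.5. The 3 just outside, of which the farthest was at 1015 bp, scored 30.2, 30.2 and 39.4.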

How the data were processed

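Lists of called features were used for 2 H3K4me3 and 2 TAF4b libraries, 1 list per library and not pooled. The authors deposited a peak score per feature, on an unstated scale, with positions, widths and distances to the TSS in bp per the file headers. Tools in the submitters' processing notes were HOMER 4.10, Bowtie2 2.3.0, SAMtools 1.9, Trim Galore 0.5.0, FastQC 0.11.5 and bcl2fastq 2.20, with GRCm39 as the build, and their roles and settings are not stated. The use of IgG in calling is likewise not stated.

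The distance is measured from the feature centre: in 1256 of 1256 pairs of features within 20 kb of the same nearest transcript, centres differed by the difference of their signed distances, within 1 bp. An overlap needed at least 1 bp in common. For 16 differences in shares, Fisher's exact test (two-sided) was run and the p-values adjusted together (Benjamini-Hochberg, threshold 0.05), with exact (Clopper-Pearson) 95% intervals for shares and Newcombe intervals for differences, and tested on simulated data. Members, lists and tests were chosen with earlier results of these data known. Regions are named by rule: the 5 highest scores in each distance class, among all members and among those in replicate 2, those beyond 1 kb with TAF4b, the 5 highest within 1 kb with peaks of both TAF4b lists, the 3 widest, the 3 with the largest gaps, the 3 introns with most regions and 3 on each side of 1 kb. The germ cell, granulosa and other gonadal marker lists could not be applied without gene names. No sequence was read, since no GRCm39 genome was used here. Alternatives changed the distance split, the overlap, the score threshold and the lists. Python 3.11.15, pandas 2.3.3, NumPy 2.4.6, SciPy 1.17.1, statsmodels 0.14.6 and matplotlib 3.10.9 were used.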

Additional observations from a re-analysis of the deposited data

How the results depend on the processing

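Each value is a difference in percentage points, first class minus second. Of 116 alternatives to 16 results, 104 were planned and 12 were chosen after seeing the data. Direction and call were the same in 98. The 5 called results had 46 alternatives, of which 11 lost the call, 2 of them with a turn in sign. Leaving out H3K4me3 replicate 2 does not touch TAF4b, width or score and repeats their main values. Those alternatives could only be the same, and they are counted in the totals here. Of 70 alternatives to the results not called, 7 turned in sign. Near first-intron against promoter-TSS regions lost the call for replicate 2 at -2.45 (split at 500 bp), -2.76 (scores at or above the median), -1.71 (TSS-covering regions) and -2.2 (centred over 100 and up to 1000 bp downstream), and for width at -4.96 (scores at or above the median). Among TSS-covering regions, a limit that selects on width, width turned to 7.52 and score to 2.09 and both calls were lost. Of differences that had not passed, near first against near later introns turned in width to -0.552 (split at 500 bp) and -6.09 (scores at or above the median). Distant first against distant later introns turned to 0.119 for replicate 2 (split at 500 bp) and to -0.0715 for TAF4b (split at 2 kb). The cause was not tested.

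Leaving out each library gave 2.69 to 6.25 for TAF4b, -24.5 to 5.37 for width and -1.92 to 4.64 for score, near against distant. Near against promoter-TSS it gave -29.9 to -9.68, -13.8 to -6.42 and -13.1 to -8.71, and for width in distant first against later introns -3.92 to 25.2. Among these, calls were lost only without H3K4me3 replicate 1, where 16 near and 13 distant members remained and all 4 calls that could be made again were lost. The labels do not say what a shared replicate number marks. With the replicate block, each H3K4me3 list against the TAF4b list of its number, the TAF4b differences were 2.77, -10, 3.29 and 0.327, which changed no call. The short replicate 2 list, unknown depth and the floor of 500 bp limit what absence and width show.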

Other observations

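The H3K4me3 replicate 2 list had 29 first-intron regions of its own, 16 within 1 kb of a TSS and 13 beyond. The 12 with no counterpart in replicate 1 scored 70.9 to 1971.0, and the 17 with one scored 70.9 to 141.8. The highest, chosen after its value was seen, lay in the first intron of ENSMUST00000214038 on chromosome 9 at 35216459 to 35216959. Its score of 1971.0 stood far above the next of the 12, 212.7 in ENSMUST00000159816 on chromosome 16 at 57211625 to 57212125. Scores in the whole replicate 2 list reached 27445.5.

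First-intron regions were found on all placed chromosomes of the list. Their share of a chromosome's regions ran from 10.4% on chromosome 17 (35 of 338, exact 95% interval 7.32 to 14.1%) to 21.0% on chromosome 4 (107 of 510, 17.5 to 24.8%), against 14.4% of the list. On the X chromosome it was 16.7% (39 of 234, 12.1 to 22.1%). These shares are given without a test.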
